A study of Mus musculus with 16 samples.

Results

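Uninjured carotid arteries of the mouse carried 246 detected microRNAs (miRNAs) of the 611 mouse miRNAs on the array, and a small set of them gave most of the signal. The profile was led by the let-7 family, with 27.4% ± 3.75 (SD, n = 3) of the summed signal. Among members matched to a sequence, the miR-29 family, the red cell miRNA miR-451, the miR-15/16 family, miR-24 and miR-22 followed. miR-23b had no matched sequence and is not counted in that order. The series follows neointima growth, the thickening of the innermost vessel layer after injury, and holds 16 arrays. Described here are the 3 arrays of uninjured arteries, called samples 1 to 3. These arteries came from female ApoE-/- mice on a C57BL/6 background, 6 to 8 weeks old, whose loss of apolipoprotein E makes them prone to arterial plaques. The series' protocol names a western-type diet for its ApoE-/- mice, and the labels do not say which side the uninjured vessels came from or whether vessels were pooled. No wild-type artery, and none named as chow-fed, belongs to the 3 arrays. The profile is therefore that of ApoE-/- vessels from a series whose protocol names this diet, and the part of the diet was not tested.

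From each sample, 700 ng of total RNA was labelled with Cy3 at the 3′ end and hybridised in 1 colour to an Agilent mouse array of Sanger release 12. Members were the mouse miRNAs with a probe of which at least 50% of the spots were marked well above background on all 3 arrays. Their level is the total gene signal of the scanner software, in intensity units, which adds up the probes of a miRNA, and the percent is its part of the sum over the 246 members on that array. Signal from different miRNAs also depends on probe and labelling efficiency, so the order given here is an order of signal, not of molecules. On samples 1, 2 and 3, 33.6%, 34.3% and 39.8% of mouse spots were well above background, no mouse spot was saturated, and the members' signals summed to 214500, 279739 and 278036 units. The scanner software's median error for a member was 9.16%, 9.12% and 8.73%. The 3 arrays shared 1 slide, and the series counts its groups in animals without tying an array to an animal, so the spread is that between these samples. With 1 group of 3 arrays no test was run, since an exact two-sided sign-flip permutation test of 3 values cannot give a p below 0.25.

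miRNAs are short RNAs cut from a hairpin precursor. Each hairpin can give a 5′ (5p) and a 3′ (3p) strand, of which usually a single strand is mainly loaded into Argonaute. On this array the strand thought to be the minor one carries a star. A loaded miRNA finds target messenger RNAs mainly through its seed, the bases at positions 2 to 8, so miRNAs with the same seed are grouped as a family. In the arterial wall, miR-143 and miR-145 are known as smooth muscle miRNAs, miR-126 as the endothelial one and miR-29 as a repressor of collagen and elastin genes, while miR-451 and miR-144 come from red blood cells.

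The mature sequences of the brightest miRNAs are shown because the families differ in their seeds and, within a family, by a few bases outside it. They are from RefSeq, build GRCm38.p6, written 5′ to 3′ with the seed in capitals. Of the members, 193 were matched to a RefSeq mature sequence, and these held 87.8% of the signal.
let-7b: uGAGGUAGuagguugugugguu
let-7c: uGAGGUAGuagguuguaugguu
let-7a: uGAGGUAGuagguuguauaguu
let-7i: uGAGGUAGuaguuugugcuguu
let-7d: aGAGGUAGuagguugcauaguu
let-7f: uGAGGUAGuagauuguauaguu
let-7g: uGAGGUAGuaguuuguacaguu
let-7e: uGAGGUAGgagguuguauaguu
miR-98: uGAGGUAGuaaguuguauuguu
miR-29a: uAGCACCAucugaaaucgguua
miR-29c: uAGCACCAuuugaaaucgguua
miR-29b: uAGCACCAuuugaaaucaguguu
miR-451: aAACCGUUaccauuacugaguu
miR-24: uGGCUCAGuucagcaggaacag
miR-22: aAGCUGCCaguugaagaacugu
miR-27a: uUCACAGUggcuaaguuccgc
miR-23a: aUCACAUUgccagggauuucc
miR-126-3p: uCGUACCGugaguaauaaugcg
miR-195: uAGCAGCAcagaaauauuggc
miR-15a: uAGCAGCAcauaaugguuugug

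Counted from 1 at the 5′ end, let-7b and let-7c differ by 1 base, G17A. let-7b and let-7a differ by G17A and G19A, and miR-29a and miR-29c by C10U. Probes for such close neighbours may share signal, and the values do not separate that part. The mature let-7b lies at chr15:85707325-85707346 on the plus strand, miR-451 at chr11:78073186-78073207 on the plus strand, miR-29a at chr6:31062673-31062694 on the minus strand and miR-22 at chr11:75463772-75463793 on the plus strand, all in non-coding miRNA genes.

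The 10 members brightest on the mean of the 3 arrays held 45.4%, 46.7% and 43.8% of the signal on samples 1, 2 and 3 (mean 45.3% ± 1.47, SD, n = 3). By the same mean order, the 25 brightest held 71.9% ± 2.08 and the 50 brightest 89.6% ± 1.88. In samples 1 and 2, 12 miRNAs sufficed for 50% of the signal and 48 for 90%, against 13 and 58 in sample 3. On the mean, 30 members held at least 1% each, 53 held between 0.1% and 1%, 134 between 0.01% and 0.1%, and 29 less than 0.01%. The brightest member exceeded the dimmest by 4318-fold, 4086-fold and 2701-fold on the 3 arrays. The 246 members held between 99.5% and 99.7% of all positive mouse miRNA signal.

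**Figure D1:**
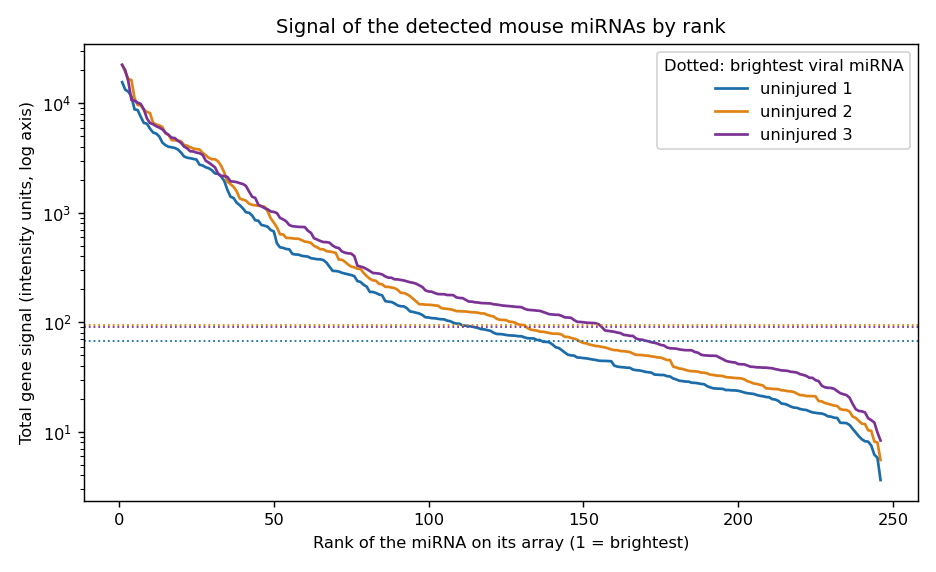
Total gene signal in intensity units (log axis) of the 246 detected mouse miRNAs against their rank on each of the 3 uninjured arrays (lines), with the brightest viral miRNA of each array as a dotted line. The curves fall steeply over the brightest 50 miRNAs, and the curve of sample 3 runs above the others among the dim miRNAs.

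The array also carries probes for 39 viral miRNAs, which an uninfected mouse does not make, and their signal gives a scale for the dim members. Of these, 2 met the rule. The 131 members that were brighter than every viral miRNA on all 3 arrays held 98.4%, 98.3% and 97.2% of the signal on samples 1, 2 and 3. Another 88 members were dimmer than the brightest viral miRNA on all 3 arrays, and 27 lay on different sides on different arrays. What the probes of the 2 bright viral miRNAs measure was not tested. The lowest members were miR-125a-3p (5.79, 8.13 and 8.31 units on samples 1, 2 and 3), miR-299 (3.62, 5.52 and 13.3 units) and miR-712 (6.17, 7.97 and 12.8 units). The brightest miRNAs just outside the rule were miR-490 (13.7, 24.5 and 49.7 units), miR-1897-5p (12.1, 7.91 and 57.3 units) and miR-154* (12.4, 15.3 and 43.7 units). These 3 missed the rule on sample 1, and miR-1897-5p and miR-154* also on sample 2, although on the mean of the 3 arrays they were brighter than the lowest members.

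Among single miRNAs, let-7b, a repressor of growth and cell cycle genes, gave 12797, 19369 and 22454 units on samples 1, 2 and 3. miR-451, a Dicer-independent miRNA of red blood cells, gave 15630, 22543 and 9885 units. let-7c gave 11616, 16375 and 20116 units. As percent of signal the means were 6.99% ± 1.06 for let-7b, 6.30% ± 2.41 for miR-451 and 6.17% ± 0.950 for let-7c (SD, n = 3). miR-451 ranked above both let-7 members in samples 1 and 2 and below them in sample 3, while let-7b lay above let-7c on all 3 arrays.

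miR-29a, which targets collagen and elastin messages, gave 13343, 16652 and 15862 units, or 5.96% ± 0.258. It lay above the next miRNA, miR-24, on all 3 arrays. miR-24, a product of the miR-23/27/24 clusters, gave 8816, 11154 and 10711 units (3.98% ± 0.129). miR-22, a muscle-enriched miRNA, gave 8699, 9595 and 8837 units (3.55% ± 0.452). Their spread was narrow beside that of miR-451.

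let-7a (3.32% ± 0.424), let-7i (3.13% ± 0.469), miR-720 (3.10% ± 0.676) and miR-27a (2.80% ± 0.371) closed the 10 brightest. miR-720 was later taken off miRNA lists as a fragment of a transfer RNA, and its signal is given as the array names it. Ranks 11 to 25 were held by let-7d, miR-140, miR-23a, miR-29c, miR-126-3p, let-7f, let-7g, miR-23b, let-7e, miR-125b-5p, miR-140*, miR-99a, miR-21, miR-195 and miR-193b, from 2.32% down to 1.39%. miR-126-3p, made in endothelial cells from an intron of Egfl7, gave 3796, 5313 and 6186 units (1.96% ± 0.235). miR-21, known for its rise in injured vessels, gave 3155, 4102 and 3550 units (1.40% ± 0.111) in these uninjured ones. miR-125b-5p gave 3916, 4165 and 3885 units (1.57% ± 0.225).

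The top of the list was shared between arrays, while the order of neighbours was not. The 3 arrays had 9 of their 10 and 21 of their 25 brightest miRNAs in common. Of the 245 pairs of neighbours in the mean order, 13 stood in the same order on all 3 arrays, and 4 of the 25 pairs that start within the 25 brightest did: miR-29a over miR-24, miR-24 over miR-22, let-7a over let-7i and miR-193b over miR-30a. A difference of 1 rank was therefore mostly within the spread between samples. The probes of a miRNA also differed in brightness, by 4.72-fold at the median (quartiles 1.99 and 10.1) and by over 10-fold for 63 of the 246 members. Ranking by the brightest probe kept 24 of the 25 brightest among the 25, in another order.

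**Figure D2:**
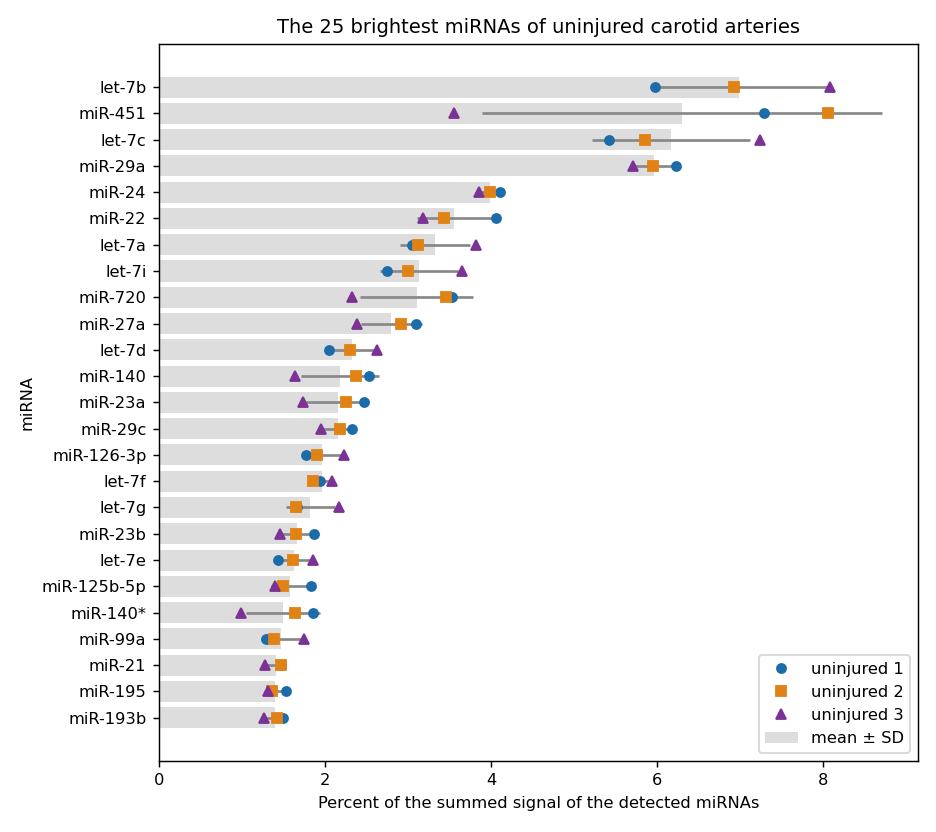
Percent of the summed signal for the 25 brightest miRNAs in uninjured carotid arteries, with the mean as a bar, the SD over 3 arrays as a line, and each sample as a point. miR-451 has the widest spread, with sample 3 at 3.56% against 7.29% and 8.06% in samples 1 and 2.

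Grouped by seed, the 193 matched members fell into 149 seeds, of which 24 had more than 1 member. The 10 brightest seeds held 65.3% ± 0.688 of the signal. The let-7 seed GAGGUAG, whose family represses growth genes such as Lin28 and Ras, took 24.3%, 26.3% and 31.6% on samples 1, 2 and 3 over 9 members. Sample 3 was the highest. No single let-7 dominated, since let-7b, the brightest, made up 25.5% of the family, and let-7c, let-7a and let-7i came next. miR-98, the member with its own name, held 0.0516%.

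The miR-29 seed AGCACCA took 9.45%, 8.97% and 8.43%, of which miR-29a made 66.6%, ahead of miR-29c (2.15% ± 0.191 of all signal) and miR-29b (0.842% ± 0.0650). The miR-451 seed AACCGUU had this miRNA alone, at 7.29%, 8.06% and 3.56%. The seed AGCAGCA of the miR-15/16 family, whose members restrain the cell cycle, took 5.60%, 5.60% and 5.02% over 6 members. There miR-195 (1.40% ± 0.113), miR-15a (1.18% ± 0.0941), miR-497 (1.05% ± 0.0144) and miR-15b (0.956% ± 0.174) lay close together. miR-503, listed with this family for its related sequence, was not detected.

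miR-24 and miR-22 held their seeds alone, at 3.98% and 3.55%. The miR-27 seed UCACAGU took 3.23% ± 0.385 through miR-27a (2.80%) and miR-27b (0.429% ± 0.0143), which differ by C19U. The seed ACCCGUA of miR-99a (1.47% ± 0.244), miR-100 (0.793% ± 0.129) and miR-99b (0.0647%) took 2.33% ± 0.357. miR-23a (2.15% ± 0.377) and miR-126-3p (1.96% ± 0.235) closed the 10 brightest seeds. miR-23b, at 1.65% ± 0.210, has no sequence here and is outside these sums, so the order of the seeds holds for the matched members only.

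Other families were listed by name and cross these seeds. Their counts of detected members are to be read beside 246 of 611 for all mouse miRNAs on the array. miR-23, miR-27 and miR-24 together, 5 of 5 detected, held 11.0% ± 1.09, and the miR-10, miR-99, miR-100 and miR-125 group, 7 of 7 detected, 4.23% ± 0.338. The miR-17-92 cluster and its paralogs, linked to cell growth, had 9 of 12 members detected at 1.94% ± 0.154, led by miR-106b, miR-92a, miR-20a and miR-19b. miR-30 held 1.90% ± 0.182 (5 of 5, led by miR-30a), miR-26 held 1.38% ± 0.144 (2 of 2) and miR-181 held 0.134% ± 0.00380 (4 of 4). miR-34, a p53-responsive family led by miR-34a, held 0.284% ± 0.0935 (3 of 3). Of miR-221 and miR-222, known from proliferating smooth muscle, miR-221 alone was detected, at 45.7, 62.5 and 49.5 units. Of the 39 rodent-specific miRNAs from the Sfmbt2 intron 15 were detected (0.409% ± 0.0346), led by miR-467f, near the share over all mouse miRNAs.

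The bright members often started with U and were low in GC. Of the 25 brightest matched members, 18 (72.0%) started with U, against 49.7% of all 193 matched members and 40.9% of the 1679 RefSeq mature mouse miRNAs. Their median GC content was 40.9%, against 47.6% and 52.2%. Across the 193 members, GC content and log2 percent of signal had a Pearson r of -0.23 and a Spearman rho of -0.21. These points share arrays and many share a seed or precursor, and probe binding also depends on GC, so the value is a description.

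Many bright members lay next to each other in the genome. With RefSeq hairpins of GRCm38.p6 joined within 10 kb on 1 strand, 95 of the 193 matched members fell into 30 clusters. These 95 held 60.9% of the signal. The clustered share of all mouse miRNAs was not computed, so clustering is not shown to be particular to bright or detected ones. A miRNA with several hairpins is counted in each of its clusters, because the array cannot say which copy it came from. let-7b and let-7c on chromosome 15 came to 13.2% ± 1.99, and miR-23a, miR-27a and miR-24 on chromosome 8 came to 8.94% ± 0.876. let-7c with miR-99a on chromosome 16 (7.64% ± 1.19), let-7a, let-7f and let-7d on chromosome 13 (7.62% ± 0.806), miR-29a with miR-29b on chromosome 6 (6.80% ± 0.323) and miR-144 with miR-451 on chromosome 11 (6.47% ± 2.48) followed. Members of a cluster could differ widely: on the mean, miR-451 was 38.2-fold brighter than its neighbour miR-144.

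The array names 178 pairs of strands from the same hairpin, a strand with several partners counted in each. Both strands were detected in 33 pairs, 1 strand in 86 and neither in 59. Among the 33, the brighter strand exceeded the other in the same direction on all 3 arrays and by at least 2-fold on the mean in 26 pairs, by at least 10-fold on the mean in 13 and by at least 100-fold in 5. At least 2-fold on each single array held for 25 pairs. The median ratio was 6.44-fold, and the SD of the log2 ratio between samples had a median of 0.17, so most ratios were far wider than their spread. A ratio compares different probes and carries their difference in efficiency. Where arms were known, the 5p strand was the brighter in 17 pairs and the 3p strand in 14.

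**Figure D3:**
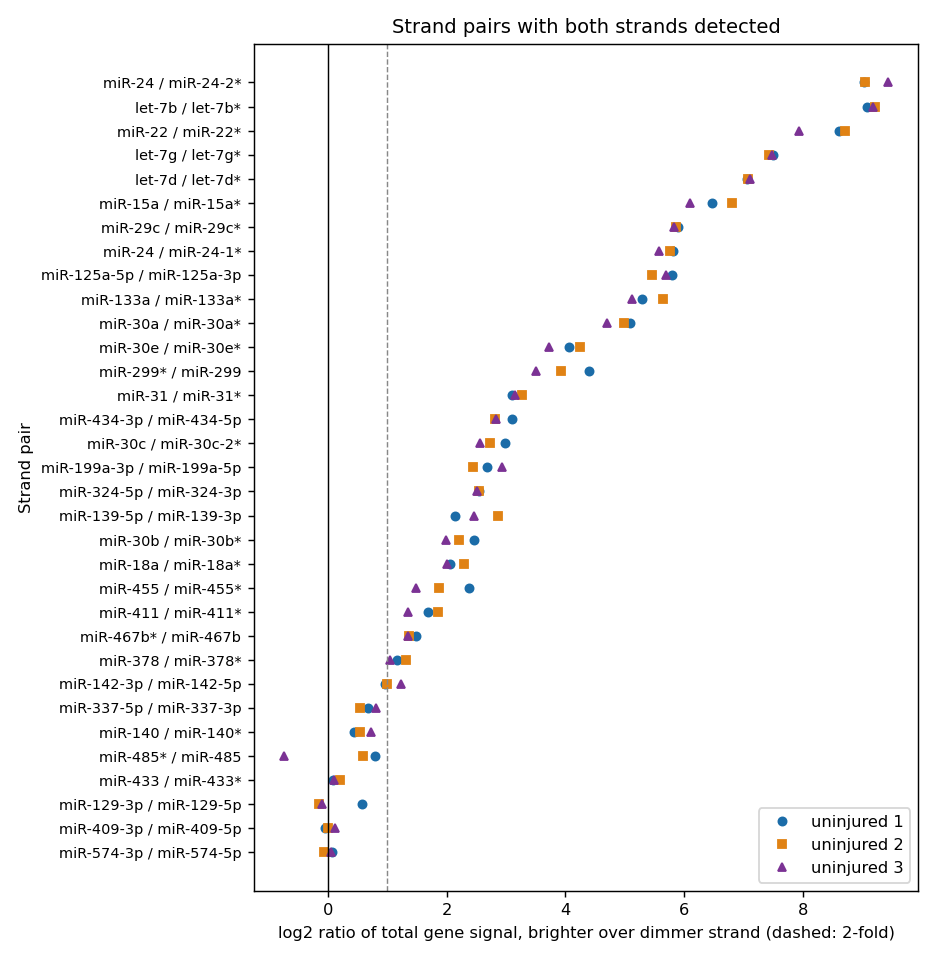
The log2 ratio of total gene signal, brighter over dimmer strand, for the 33 pairs with both strands detected, with each of the 3 uninjured samples as a point. The ratios of a pair lie close together for most pairs, and miR-485 is the pair whose samples lie furthest apart across equality.

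The most uneven measured pairs belonged to the bright families. A detected partner cannot lie far below the lowest members, so ratios of this size need a bright strand. miR-24 exceeded its partner miR-24-2* by 519-fold, 526-fold and 692-fold on samples 1, 2 and 3, and its partner miR-24-1* by 56.5-fold, 54.3-fold and 47.6-fold. let-7b exceeded let-7b* by 541-fold, 594-fold and 579-fold, a narrow range. miR-22 exceeded miR-22* by 390-fold, 415-fold and 244-fold. In all of these the unstarred strand was the brighter on every array. let-7g over let-7g* (177-fold), let-7d over let-7d* (135-fold), miR-15a over miR-15a* (87.8-fold) and miR-29c over miR-29c* (58.0-fold) followed.

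Where the partner was not detected, the ratio is a bound against the partner's own signal or, where that was lower, against the lowest signal of a member on the same array. By the lowest of the 3 arrays' bounds, let-7c exceeded its partner by at least 2420-fold, miR-29a by at least 1908-fold, let-7a by at least 1275-fold and miR-27a by at least 796-fold. let-7i exceeded its partner by at least 761-fold on every array. The endothelial pair was among these: miR-126-3p exceeded miR-126-5p by at least 744-fold on every array, the latter giving 1.69, 0.350 and 1.31 units. In total 20 pairs had a bound of at least 100-fold on each of the 3 arrays. The partners of let-7c, miR-29a, let-7a, miR-27a and miR-126-3p read below the lowest member on all 3 arrays. For these the bound only follows the brightness of the detected strand. A dim strand cannot reach a bound of this size, which also limits the count of 20. All are bounds on signal and not on molecules, since the probes of a partner may report it poorly.

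Near-equal pairs were fewer, with 7 of 33 under 2-fold. miR-140, a miRNA best known from cartilage, gave 5419, 6634 and 4552 units and its partner miR-140* 3972, 4576 and 2741 units. The 5p strand was the brighter on all 3 arrays, by 1.49-fold on the mean, and both strands were among the 25 brightest miRNAs. miR-574-3p over miR-574-5p (1.01-fold), miR-409-3p over miR-409-5p (1.02-fold), miR-129-3p over miR-129-5p (1.08-fold) and miR-485* over miR-485 (1.16-fold) changed direction between samples, so no strand stood out. miR-433 over miR-433* (1.097-fold), miR-337-5p over miR-337-3p (1.60-fold) and miR-142-3p over miR-142-5p (2.10-fold) kept it.
miR-409-5p: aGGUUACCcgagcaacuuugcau
miR-409-3p: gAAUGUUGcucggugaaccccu
miR-574-5p: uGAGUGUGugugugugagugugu
miR-574-3p: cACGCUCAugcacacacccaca
These pairs are shown because their 2 strands, with different seeds, gave like signal. Both strands of miR-409 and of miR-129 were dimmer than the brightest viral miRNA on samples 1 and 2. Those of miR-433 and miR-485 were dimmer than it on all 3 arrays. Near-equal signal at that level may not be of the strands themselves, which was not tested.

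The star did not always mark the dimmer strand. Of 23 starred pairs with both strands detected, the starred strand was the brighter on the mean in 3: miR-299*, miR-467b* and miR-485*. For miR-485* this held on 2 of the 3 arrays. miR-467b* (44.1, 54.0 and 67.1 units) was dimmer than the brightest viral miRNA on each array. For miR-299* the ratio was 21.2-fold, 15.2-fold and 11.3-fold on samples 1, 2 and 3, with miR-299 itself among the lowest members. Of 64 starred pairs with 1 strand detected, the detected strand was the starred one in 9: miR-9*, miR-877*, miR-467a*, miR-483*, miR-674*, miR-467e*, miR-330*, miR-17* and miR-191*. Among these, miR-330* (11.5, 15.3 and 23.5 units) and miR-191* (7.49, 10.3 and 9.86 units) were near the floor.

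The clearest of the starred strands detected alone was miR-9*, the 3p strand of a neuronal hairpin, at 109, 146 and 262 units. The probes for miR-9 gave -0.553, -0.311 and 4.92 units. miR-17 read -2.87, -3.83 and -2.62 units and its partner miR-17* 9.88, 15.8 and 12.1 units, both near the floor. Its close relative miR-20a, from the same cluster, gave 774, 1138 and 1029 units. The miR-17 probes also list miR-106a, so a value below 0 there is of the probe set for both. The sequences show that miR-17 and miR-20a share their seed.
miR-9: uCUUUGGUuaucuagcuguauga
miR-9*: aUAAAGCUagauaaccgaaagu
miR-299: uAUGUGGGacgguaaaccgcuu
miR-299*: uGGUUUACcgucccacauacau
miR-17: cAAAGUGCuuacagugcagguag
miR-20a: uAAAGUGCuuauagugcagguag

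The label carotid artery was set against lists of cell type miRNAs. Beside the detected counts of these and later lists stands the share over all mouse miRNAs, 246 of 611. In whole tissue, fewer cells of a type and less RNA per cell cannot be told apart. Of the smooth muscle list, miR-143 and miR-145 were detected and miR-145* was not, and the list held 1.22%, 1.18% and 0.726% of the signal. miR-143 gave 2447, 3092 and 1908 units (rank 31, 0.977% ± 0.253), and miR-145, which comes from the same precursor transcript, gave 176, 211 and 111 units (rank 95). These smooth muscle miRNAs were thus present but not among the 25 brightest, and sample 3 was the lowest for both. Of the endothelial list, miR-126-3p was detected and miR-126-5p was not. The mesenchymal miR-199 and miR-214 list had 4 of 5 members detected and held 2.90%, 2.75% and 3.20%. Its brightest were miR-199b* (1.33% ± 0.209) and miR-199a-3p (1.24% ± 0.0889), and the probes of the latter also list miR-199b.

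miRNAs of other cells were present beside them. The erythroid list, miR-451, miR-144 and miR-486, was detected in full and held 7.60%, 8.48% and 3.71%. The striated muscle list had 5 of 8 members detected at 1.43%, 1.095% and 1.94%. Its brightest was miR-133b (1237, 1290 and 2169 units), followed by miR-133a (1099, 1172 and 1929 units) and miR-1 (676, 541 and 1105 units). The heart and slow-muscle miRNAs miR-208a, miR-208b and miR-499 were not detected. The neuronal list had 7 of 8 members detected at 0.281%, 0.326% and 0.699%, led by miR-137, miR-9*, miR-128 and miR-124.

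The leukocyte list had 6 of 9 detected at 0.446%, 0.454% and 0.546%, with miR-342-3p and the myeloid miR-223 (398, 579 and 553 units) the brightest and the lymphocyte miR-150 not detected. The 4 adipose-associated miRNAs, miR-193b, miR-365, miR-378 and miR-193, were all detected at 1.84%, 1.72% and 1.57%. Of the epithelial and endocrine list, miR-375 alone of 8 was detected (72.7, 60.4 and 50.6 units), with every miR-200 family member, miR-203 and miR-205 not detected. The hepatocyte miR-122 was not detected, at 12.2, 8.64 and 8.84 units.

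**Figure D4:**
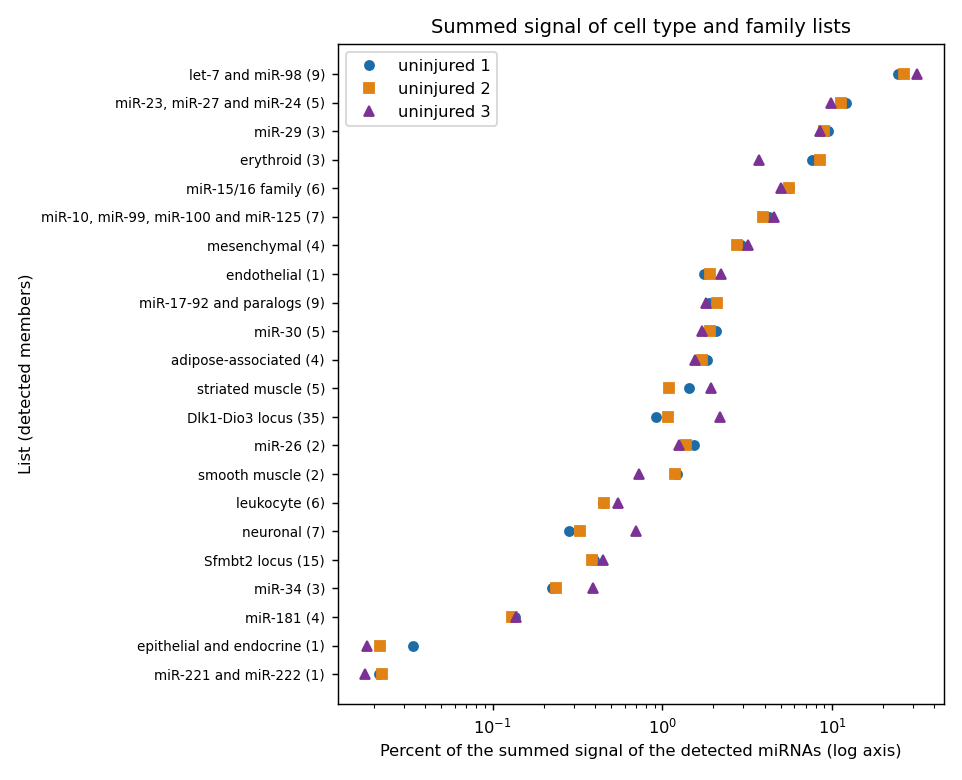
Percent of the summed signal (log axis) of each cell type and family list with at least 1 detected member, with the number detected in brackets and each of the 3 uninjured samples as a point. Sample 3 lies below the others for the erythroid and smooth muscle lists and above them for the neuronal, Dlk1-Dio3 and striated muscle lists. It also lies apart for further lists, such as above for the endothelial, let-7 and miR-34 lists and below for miR-29 and miR-30.

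Sample 3 stood apart from samples 1 and 2. For differences between samples, log2 signals were scaled to the 75th percentile over members of each array. On that scale samples 1 and 2 correlated across the 246 members at r = 0.996, samples 1 and 3 at 0.967 and samples 2 and 3 at 0.972. The median absolute log2 difference was 0.13 between samples 1 and 2, 0.39 between samples 1 and 3 and 0.40 between samples 2 and 3. The median SD of a member over the 3 samples was 0.25 and without sample 3 it was 0.09. For 70.3% of the members sample 3 was the one furthest from the other two, and it was so for all of the 10 members with the widest spread.

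Against the mean of samples 1 and 2, 29 of the 246 members (11.8%) were over 2-fold higher in sample 3 and 7 (2.85%) were over 2-fold lower, with a median of -0.05 (log2) over all members. Scaled to the sum over members these counts were 47 and 4, and scaled with all mouse probes in the 75th percentile 12 and 17. They were 60 and 2 with no scaling, and 5 and 5 with a normexp background correction. The normexp values are of the brightest probe, which without that correction gave 25 and 6. They also carry an offset of 50 units, which shrinks the ratios of dim miRNAs. The counts thus depended on scaling and on the background correction with its offset, and the median of all members moved between -0.29 and 0.46. The erythroid, smooth muscle, neuronal, Dlk1-Dio3 and striated muscle medians below kept their sign under each of the 7 other settings tried. Sample 3 also had the most detected miRNAs, 292 against 252 and 257, and the highest median member signal, 143 units against 77.8 and 105. The part of these differences in the results below was not tested.

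The widest spread was that of miR-183, of a sensory cell cluster, with 24.6, 18.0 and 177 units on samples 1, 2 and 3 (SD 1.55, log2). Its neighbour miR-96 gave 30.0, 31.2 and 149 units (SD 1.04). The skeletal muscle miRNA miR-206 gave 28.7, 36.7 and 137 units. All 3 were several-fold higher in sample 3 than in either of the others. miR-689 (38.8, 54.6 and 237 units), miR-709 (120, 173 and 656 units) and the neuronal miR-138 (24.02, 50.2 and 124 units) were also highest there. miR-486 (295, 531 and 195 units), miR-144 (385, 635 and 247 units), miR-451 and miR-690 (76.0, 73.6 and 39.3 units) made up the rest of the 10 widest and were lowest there.

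Of all 246 members, 37.8% were highest and 50% lowest in sample 3, against which the lists below are read. Members of a list can share a hairpin, a transcript or a cluster, so the counts within a list are not of separate observations. The erythroid list was lowest in sample 3 in 3 of 3 members, with a median log2 difference from the mean of samples 1 and 2 of -1.51. Its range over 7 other settings was -1.75 to -1.002. The smooth muscle list was lowest in 2 of 2, with a median of -1.18 (range -1.42 to -0.66). The neuronal list was highest in sample 3 in 6 of 7 detected members, with a median of 1.06 (range 0.48 to 1.57). The exception, miR-128, lay at -0.10. miR-137, a brain-enriched miRNA, gave 179, 283 and 754 units, and miR-124, the most neuron-specific of the list, 68.7, 123 and 274 units.

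The Dlk1-Dio3 locus, an imprinted region on chromosome 12 whose miRNAs are abundant in brain and embryo, had 35 of 74 listed members detected. They held 0.922%, 1.08% and 2.18% of the signal and were highest in sample 3 in 34 of 35, with a median of 0.91 (range 0.20, with normexp, to 1.42). The brightest were miR-300 (294, 465 and 836 units), miR-154 (264, 464 and 773 units), miR-127 (189, 337 and 570 units) and miR-410 (153, 223 and 585 units). Of the 29 members over 2-fold higher in sample 3, 13 were from this locus (of its 35 detected members), 4 were on the neuronal list, 1 was miR-206, and 11 were on no list, among them miR-183, miR-96, miR-7a, miR-7b, miR-218 and miR-153. The striated muscle list was highest in sample 3 in 4 of 5 members, with a median of 0.36 (range 0.12 to 0.87).

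The let-7 and miR-98 list, at 24.3%, 26.3% and 31.6%, had a median of 0.00 on the 75th percentile scale. Its median was 0.33 scaled to the sum, 0.38 with quantile normalization, 0.51 with no scaling and -0.24 with all mouse probes in the percentile. Without sample 3 the let-7 seed held 25.3% and the erythroid miR-451 was the brightest miRNA. Other lists shifted too. miR-34 was highest in sample 3 in 3 of 3 members, with a median of 0.68 (range over the other settings 0.26 to 1.19). miR-23, miR-27 and miR-24 were lowest in 5 of 5 (median -0.60, range -0.84 to -0.09). So was miR-30 in 5 of 5 (-0.55, range -0.79 to -0.04), and the adipose-associated list in 4 of 4 (-0.44). The shifts of sample 3 were thus not limited to the neuronal, striated muscle, erythroid and smooth muscle lists. The part of these cell types in the differences between samples was not tested.

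**Figure D5:**
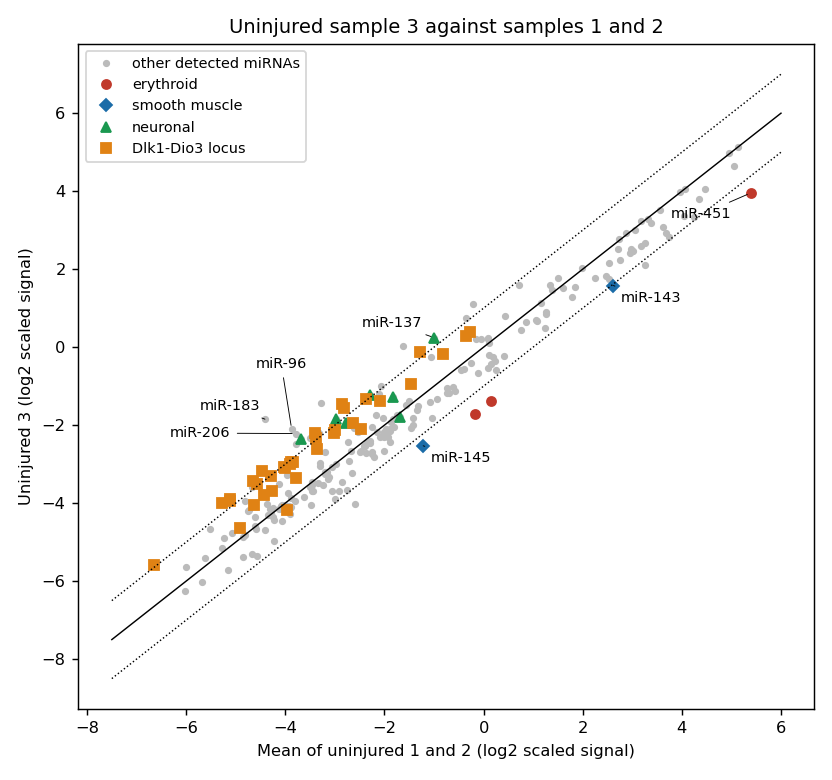
Log2 signal scaled to the 75th percentile over members, in sample 3 against the mean of samples 1 and 2, with 1 point for each of the 246 miRNAs, the line of equality, and dotted lines at a 2-fold difference. The Dlk1-Dio3 and neuronal miRNAs lie mostly above the line of equality, and the erythroid miRNAs with miR-143 and miR-145 lie on or below the lower dotted line.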

How the data were processed

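The deposited scanner files, 1 per array, were made by the authors with Agilent Feature Extraction 9.5.1.1, per the file headers, and hold the intensity of each spot and a total gene signal per miRNA. How the spot background was estimated is not given in the sources used here. The authors' deposited value table, on a linear intensity scale, equalled the total gene signal within 0.1% or 0.01 units for 610 of the 611 mouse miRNAs, without let-7i, and its column medians over them were 3.81, 5.36 and 7.93, so its columns share no common centre. The 13 arrays of injured arteries were not used. Precision is limited by the number of arrays, 3.

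Percents were taken of the members' summed signal, and log2 of the signal was scaled to each array's 75th percentile over members, computed from the deposited intensities. Seeds and clusters used RefSeq (GRCm38.p6): 44 members matched by exact name and 149 through a hand-written table from old to present names. Analysis used Python 3.11.15 (pandas 2.3.3, numpy 2.4.6), and limma 3.58.1 in R 4.3.3 for the normexp background (offset 50). The calculations were tested on simulated data with an equal, independent spread for every miRNA. Such data hold no sample that stands apart, so they check the arithmetic only. Alternatives were other levels, scalings, detection rules, denominators and each array left out.

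The members and lists were chosen with earlier results of these data known. Named were the 25 brightest members, the 8 most uneven, 8 most even and 6 largest-bound strand pairs, the 10 brightest seeds with up to 4 members, the 10 widest spreads, up to 4 miRNAs per list, 3 on each side of the detection rule and the 6 brightest clusters. Other named miRNAs (starred strands brighter than their partners, miR-17, miR-20a, undetected list members and those of no list in sample 3) were chosen after their values were seen.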

Additional observations from a re-analysis of the deposited data

Results flagged for a closer look

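Signal appeared in probes outside the mouse miRNAs. The murine cytomegalovirus miRNA mcmv-miR-M23-1-5p met the detection rule with a mean of 75.4 units (66.9, 93.9 and 65.5 on samples 1, 2 and 3), and the murine gammaherpesvirus miRNA mghv-miR-M1-2 with a mean of 67.8 units (49.5, 64.0 and 89.8). The other 37 viral miRNAs did not meet the rule.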

How the results depend on the processing

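Of 49 alternative values for the counts and shares above, 46 stayed within 1.5 times the count or 1 SD of the share. The exceptions were the 10 brightest members with normexp, 43.2%, the members that were also brighter than every viral miRNA, 131 (chosen after seeing the data), and the median SD, which left-out arrays moved between 0.092 and 0.28. The lowest value came without sample 3. Several of the 49 values could not move far. The signal per spot repeats the main values, since every miRNA has 20 spots, and the authors' table is the same signal without let-7i. Leaving out 1 of 3 arrays cannot move the mean let-7 share by 1 SD of its 3 values. The count of 46 is therefore not one of separate checks. Left-out arrays gave 247 to 256 members, 44.6% to 46.1% for the 10 brightest, 25 to 26 strand pairs and 25.3% to 28.9% for the let-7 seed. The difference of sample 3 for let-7 and miR-98, 0.00, turned to -0.24 with scaling over all mouse probes, -0.15 with the median over members and -0.0057 by the brightest probe. With no scaling, the difference for miR-29 (-0.48) became 0.026 and that for the miR-17-92 cluster and paralogs (-0.44) became 0.066. The alternatives for sample 3 were chosen after seeing the data, and the cause was not tested. The authors' table lacks let-7i, and without it the let-7 seed held 25.1%. No paired analysis was possible because a single group was described and no result came from a test.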
